A study of Mus musculus with 12 samples.

Results

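Interferon-stimulated genes are the genes that cells switch on after interferon binds its receptors. Here 45 genes listed under this name, with some regulators of the response, were followed in activated mouse muscle stem cells with and without the homeobox gene Hoxa9. They were chosen by name and grouped by role: transcription factors, nucleic acid sensors, the OAS, IFIT and IFITM families, GTPases, nucleotide and RNA metabolism effectors, the ISG15 and ubiquitin pathway, PARP proteins, and membrane and other induced proteins. Of the 45 genes, 44 were matched to a row among 22310 gene symbols, and Mx1 was not analysed here. Irf3 and Mx2 were listed at 0 in all 12 libraries, which left 42 genes with 10 or more reads in total. All 42 passed the filter on low counts and stood among 13540 tested genes.

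The RNA-seq libraries came from satellite cells, the stem cells of skeletal muscle, isolated from hindlimbs of C57BL/6 mice. The cells were taken 3 days after the muscles had been injured with 50 µl of 1.2% barium chloride, a toxin that destroys muscle fibres, so all groups were injured and no uninjured or interferon-treated sample was part of the comparison. There were 4 groups of 3 libraries, namely Hoxa9 knockout mice aged 22 to 28 months (old KO), Hoxa9 knockout mice aged 3 to 4 months (young KO), wild-type mice aged 22 to 28 months (old WT) and wild-type mice aged 3 to 4 months (young WT). The labels do not give the number of animals behind a library, the part of Hoxa9 that was deleted, or the cells in which it was deleted.

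Type I interferons signal through the receptor pair Ifnar1 and Ifnar2 and the kinases Jak1 and Tyk2 to a complex that holds Stat2 and Irf9 and binds a promoter element called the interferon-stimulated response element (ISRE). Interferon gamma signals through Ifngr1, Ifngr2, Jak1 and Jak2 to gamma-activated sites (GAS) in promoters. The induced proteins sense foreign RNA, degrade it, block its translation or hold virus particles at membranes, and many of them keep a basal level in uninfected cells.

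Each library held between 4193433 and 20337015 reads that fell in genes, and the 42 genes together held 6354 to 42948 reads, or 0.136% to 0.211% of them. Hoxa9 reads remained in the knockout libraries: its level was 6.46, 4.55 and 6.39 CPM (counts scaled to library depth with TMM factors) in old KO libraries, against 14.7, 15.7 and 22.5 CPM in old WT libraries. In young mice Hoxa9 had 7.21, 5.52 and 6.46 CPM in KO libraries, against 7.96, 11.4 and 11.5 CPM in WT libraries. KO and WT values did not overlap at either age, and the difference passed the threshold in old mice (log2 fold change -1.63 ± 0.25 (SE), adjusted p = 0.00235) but not in young mice (-0.67 ± 0.24, adjusted p = 0.0671). Several libraries stood apart. Y-linked genes summed to 235 CPM in old KO 2 and 298 CPM in old KO 3, against 0 to 9.46 CPM in the other 10 libraries. Xist, an RNA made by female cells, had 17.1 CPM in old KO 2 and 34.9 CPM in old KO 3, against 479 to 2031 CPM in the other 10. The sex of the animals may therefore differ within the old KO group and between it and the other groups. This bears on old KO against old WT, on old KO against young KO and on the difference of the age effects. Its part in these comparisons was not tested. Reads outside genes reached 70.8% in old KO 3 and 57.1% in old WT 2, with a lowest share of 32.2% in young KO 3. Lars2, a mitochondrial tRNA synthetase gene, took 0.484% to 25.05% of gene reads in KO libraries, against 0.0258% to 0.110% in WT libraries.

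Promoter windows were taken from RefSeq (GRCm38.p6), covering 250 bases before to 50 bases after each transcription start, and 34 of the 42 genes had at least 1 window. An ISRE-type motif, spelled GAAANNGAAA and searched on both strands, was present in 16 of these 34 genes (47.1%), against 3.99% of all 27025 genes with a window. A GAS-type motif, TTCNNNGAA, which reads the same on both strands, was present in 12 of 34 genes (35.3%), against 9.55% of all genes. The windows of 7 genes that passed the threshold in the comparisons are shown, 6 with the ISRE-type motif and, for contrast, Oasl2 with none. Each is printed in the direction of transcription as the 250 bases before the start, with the letters of every ISRE-type match in capitals, so a run of GAAA marks the motif on the printed strand and a run of TTTC the motif on the other strand. In Isg15, Bst2 and Oas1a the matches overlap each other. The positions are chr4:156200819-156201068 (minus strand) for Isg15, chr8:71537473-71537722 (minus strand) for Bst2, chr5:120907526-120907775 (minus strand) for Oas1a, chr8:46739495-46739744 (plus strand) for Irf2, chr10:128270248-128270497 (plus strand) for Stat2, chr19:34640639-34640888 (plus strand) for Ifit1 and chr5:114896684-114896933 (plus strand) for Oasl2.
Isg15: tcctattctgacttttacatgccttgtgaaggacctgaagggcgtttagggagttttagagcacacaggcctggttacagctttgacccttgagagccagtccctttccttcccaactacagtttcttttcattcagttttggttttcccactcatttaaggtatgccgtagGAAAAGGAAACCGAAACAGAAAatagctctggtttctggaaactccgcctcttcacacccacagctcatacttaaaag
Bst2: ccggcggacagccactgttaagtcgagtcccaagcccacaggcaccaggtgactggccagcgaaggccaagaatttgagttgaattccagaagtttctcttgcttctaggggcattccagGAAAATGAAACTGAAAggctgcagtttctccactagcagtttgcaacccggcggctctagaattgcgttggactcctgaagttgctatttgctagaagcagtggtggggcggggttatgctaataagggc
Oas1a: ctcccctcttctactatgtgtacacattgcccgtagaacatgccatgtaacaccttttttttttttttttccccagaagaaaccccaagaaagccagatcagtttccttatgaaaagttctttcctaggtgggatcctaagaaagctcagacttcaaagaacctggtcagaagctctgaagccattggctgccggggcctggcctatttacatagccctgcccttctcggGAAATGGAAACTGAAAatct
Irf2: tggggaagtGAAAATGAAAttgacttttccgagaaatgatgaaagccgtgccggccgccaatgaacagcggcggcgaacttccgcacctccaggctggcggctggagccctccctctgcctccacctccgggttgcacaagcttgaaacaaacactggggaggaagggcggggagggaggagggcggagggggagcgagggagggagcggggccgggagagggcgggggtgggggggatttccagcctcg
Stat2: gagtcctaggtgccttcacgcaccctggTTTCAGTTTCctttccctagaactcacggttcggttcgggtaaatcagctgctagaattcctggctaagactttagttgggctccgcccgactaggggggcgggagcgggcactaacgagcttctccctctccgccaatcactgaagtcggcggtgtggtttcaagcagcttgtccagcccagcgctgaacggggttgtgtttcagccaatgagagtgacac
Ifit1: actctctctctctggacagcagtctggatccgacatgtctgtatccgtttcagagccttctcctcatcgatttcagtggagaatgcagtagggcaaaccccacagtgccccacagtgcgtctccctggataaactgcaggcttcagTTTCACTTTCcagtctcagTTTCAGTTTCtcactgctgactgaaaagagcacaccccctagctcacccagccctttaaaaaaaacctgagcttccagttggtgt
Oasl2: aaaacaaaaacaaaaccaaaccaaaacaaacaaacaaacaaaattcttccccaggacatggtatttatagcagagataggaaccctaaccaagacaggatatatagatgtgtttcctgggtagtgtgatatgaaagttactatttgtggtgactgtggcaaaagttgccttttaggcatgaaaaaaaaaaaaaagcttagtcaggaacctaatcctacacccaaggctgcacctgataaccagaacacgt
The most upstream match began 78 bases before the start in Isg15, 130 in Bst2, 20 in Oas1a, 241 in Irf2, 222 in Stat2 and 104 in Ifit1. These matches describe letters in a window, not binding of a factor.

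The genes spanned a wide range of levels. Divided by the length of the longest transcript, the mean level in young WT libraries ran from 0.0920 CPM per kb for Oas3 to 311 CPM per kb for Ifitm3, which restricts virus entry at endosomes. Next came Ifitm2 at 131, Ly6e at 107, Irf1 at 105 and Bst2 at 58.4 CPM per kb. At the low end stood Oas2 at 1.24, Oas1a at 0.588 and Ifi44 at 0.513 CPM per kb. Ifitm3, followed by Ifitm2, also led the 42 genes in old KO, young KO and old WT libraries. Ly6e lay at 51.9 CPM per kb in old KO libraries and 39.1 in young KO libraries, against 92.5 in old WT libraries.

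**Figure D1:**
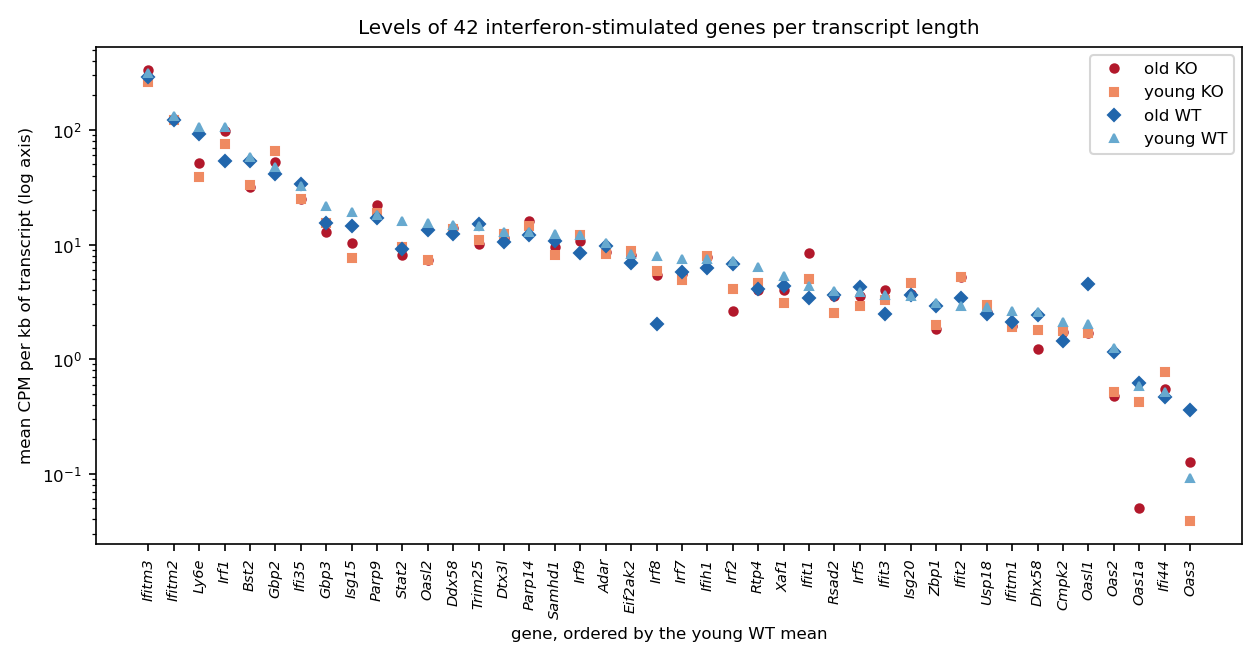
Mean level of the 42 genes in CPM per kb of the longest transcript (log axis), ordered by the young WT mean, with 1 marker for each group of 3 libraries. Many genes have all 4 markers close together. Ly6e, Bst2, Stat2, Irf8, Oasl1, Oas1a, Oas2, Oas3, Irf2, Isg15 and Ifit1 are among those with at least 1 group set apart.

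In old mice, 2 of the 42 genes were higher and 7 were lower in KO than in WT cells at an adjusted p under 0.05, that is 4.76% and 16.7% of the genes, where 9.52% of all tested genes were called higher and 7.21% lower. The lower genes were Ly6e, Oasl2, Irf2, Oasl1, Oas1a, Bst2 and Dhx58, and the higher genes were Ifit1 and Irf8. The median log2 fold change was -0.07 over the 42 genes and -0.01 over all tested genes. Scaling by library size alone moved the median of all genes to -0.26 and gave 1 higher and 11 lower among the 42, and upper-quartile factors gave 1 higher and 8 lower. Leaving out old KO 3, old WT 1 or old WT 3 reduced the 9 calls to 4, 5 and 5, and 0 remained without old KO 2 and old KO 3 together (edgeR, 10 genes at an unadjusted p under 0.05) or without old KO 3 and old WT 2 (10 genes). Leaving out young KO 3, which is not in the comparison, raised the calls to 13.

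In young mice, 1 of the 42 genes was higher and 6 were lower in KO than in WT cells, 2.38% and 14.3%, where 10.9% of all tested genes were called higher and 10% lower. The lower genes were Ly6e, Oasl2, Stat2, Isg15, Bst2 and Samhd1, and the higher gene was Ifit2. The median was -0.38 over the 42 genes, with 32 of 42 fold changes below 0. Over all tested genes it was -0.02, with 6901 of 13540 below 0. With library size alone or with upper-quartile factors the split was 0 higher and 7 lower (edgeR, where Ifit2 had an adjusted p of 0.0725 and 0.0580). Without young KO 1 there were 11 calls, and without old KO 3 and young KO 2 there were 4.

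Among the 6 KO and 6 WT libraries of both ages, 5 of the 42 genes were lower in every KO library than in any WT library, 11.9%, against 6.23% of all tested genes, and 0 were higher in every KO library, against 8.15%. The 5 genes were Dhx58, Adar, Oasl2, Bst2 and Ly6e. The comparisons at the 2 ages share no libraries, and the fold changes of the 42 genes had a Pearson correlation of 0.50 and a Spearman correlation of 0.69 between the ages, against 0.57 and 0.57 over all 13540 tested genes, as a description across genes. Of the 42 genes, 23 had a negative fold change at both ages, 10 a positive one at both and 9 opposite signs. The same sign at both ages was thus found for 78.6% of the 42 genes, near the 73.3% of all tested genes. Ly6e, Oasl2 and Bst2 passed the threshold at both ages.

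**Figure D2:**
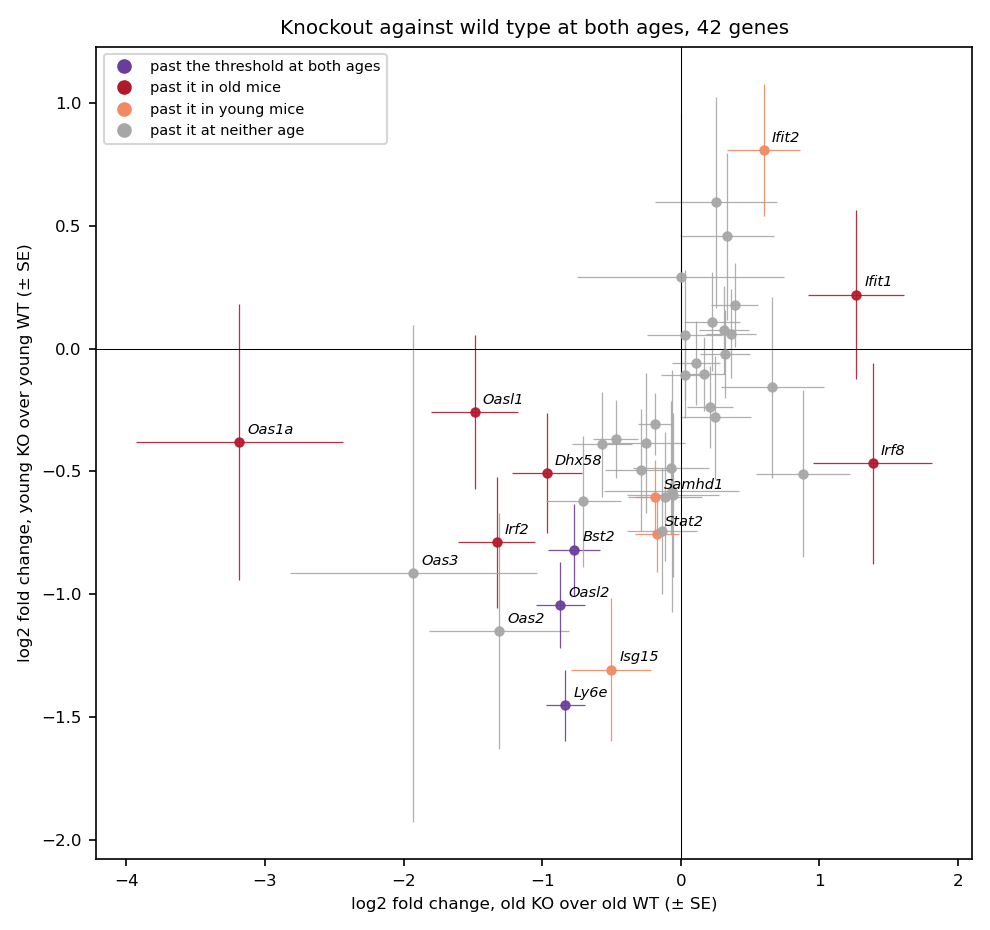
Log2 fold change of KO over WT in old mice (x axis) and young mice (y axis) for the 42 genes, with bars of 1 SE and colours for the comparison in which a gene passed the threshold. Ly6e, Oasl2 and Bst2 lie below 0 on both axes, and Ifit1 and Irf8 lie to the right of 0 in old mice with a fold change near or below 0.22 in young mice.

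Among the 6 membrane and other induced genes, Ly6e and Bst2 were lower in KO cells at both ages, and Ly6e had the lowest adjusted p of the 42 genes at each age. Ly6e, a lipid-anchored surface protein that alters virus entry, had 103, 134 and 118 CPM in old KO libraries, against 229, 217 and 186 CPM in old WT libraries. Young KO libraries had 83.97, 91.4 and 92.2 CPM of Ly6e, against 242, 282 and 208 CPM in young WT libraries. Every KO library was below every WT library, and the log2 fold change was -0.83 ± 0.14 (adjusted p = 0.00363) in old mice and -1.45 ± 0.15 (adjusted p = 0.000270) in young mice. Bst2, or tetherin, holds budding virus particles at the cell surface. It had 28.1, 21.5 and 25.9 CPM in old KO libraries, against 46.3, 31.6 and 49.8 CPM in old WT libraries, with 1 of the WT libraries, old WT 2, close to the KO values. In young mice Bst2 had 24.3, 29.4 and 24.6 CPM in KO libraries, against 42.2, 54.6 and 41.9 CPM in WT libraries. The groups did not overlap, with log2 fold changes of -0.77 ± 0.19 (adjusted p = 0.0165) in old and -0.82 ± 0.19 (adjusted p = 0.00888) in young mice; leaving out old KO 2, old KO 3, old WT 1 or old WT 3 ended the call in old mice (adjusted p up to 0.0685). The other genes of the group, Ifi35, Ifi44, Xaf1 and Rtp4, did not pass the threshold at either age. Ifi35, an interferon-induced leucine zipper protein, had mean levels of 33.7 ± 6.64 CPM in old KO and 46.3 ± 1.72 CPM in old WT libraries (SD, n = 3 each; adjusted p = 0.0579). Xaf1, Rtp4 and Ifi44 had group means of 1.89 to 13.8 CPM. The summed level of the 6 genes of the group was 197 ± 8.36 CPM in old KO and 320.5 ± 21.6 CPM in old WT libraries, and 169 ± 5.89 CPM in young KO and 362 ± 47.8 CPM in young WT libraries (mean ± SD, n = 3), of which Ly6e made up most.

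Several proteins of the OAS family make short chains of adenosine that activate the ribonuclease RNase L. The 5 genes of the group had negative fold changes in KO cells at both ages. Oasl1 in young mice did not keep this sign with the GC offsets described below. In old mice Oas1a, Oasl1 and Oasl2 were lower in KO, and in young mice Oasl2 was. Oasl2 had 27.9, 19.1 and 21.8 CPM in old KO libraries, against 41.8, 47.6 and 36.1 CPM in old WT libraries. Its level in young KO libraries was 26.03, 23.7 and 19.4 CPM, against 53.2, 42.6 and 47.9 CPM in young WT libraries. All 6 KO values lay below all 6 WT values, with log2 fold changes of -0.87 ± 0.18 (adjusted p = 0.00759) in old and -1.05 ± 0.18 (adjusted p = 0.00192) in young mice. Oasl1, which in mouse represses translation of Irf7, had 3.91, 2.28 and 4.94 CPM in old KO libraries, against 10.3, 10.04 and 9.33 CPM in old WT libraries. Young KO libraries held 4.31, 2.70 and 3.98 CPM of Oasl1, against 4.71, 5.25 and 3.29 CPM in young WT libraries. The old WT libraries were the high ones, above all other 9 libraries, and the difference passed the threshold in old mice (-1.49 ± 0.31, adjusted p = 0.00869) and not in young mice (-0.26 ± 0.31, adjusted p = 0.587). Oas1a was near the detection limit. It had 3 reads in all in old KO libraries, against 47 reads in old WT libraries, a ratio of 0.105 after division by library depth, with a counting interval of 0.0208 to 0.325 (95%, counting error only). In CPM these were 0.150, 0.134 and 0 in old KO libraries, against 0.615, 1.09 and 1.77 in old WT libraries, and 0.995, 0.899 and 0.497 in young KO libraries, against 0.970, 1.23 and 1.12 in young WT libraries. Oas1a passed the threshold in old mice (-3.18 ± 0.74, adjusted p = 0.0133), a call that ended without old KO 2, old KO 3 or old WT 3 (adjusted p up to 0.0531). Oas2 averaged 1.90 ± 0.440 CPM in old KO and 4.61 ± 1.74 CPM in old WT libraries (SD, n = 3 each; adjusted p = 0.0878), and Oas3 had at most 2.78 CPM in any library. The 5 genes summed to 29.3 ± 5.69 CPM in old KO and 59.2 ± 8.47 CPM in old WT libraries, and to 29.7 ± 5.61 CPM in young KO and 58.7 ± 6.54 CPM in young WT libraries. Oasl2 made up most of these sums, with means of 22.96, 41.8, 23.1 and 47.9 CPM in the same order.

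IFIT proteins bind foreign RNA and block its translation. The fold changes of the 3 genes were positive for all 3 in old mice and for 2 of 3 in young mice, with 1 call at each age. Ifit1 in young mice did not keep this sign with the GC offsets described below. Ifit1 had 28.2, 11.5 and 27.3 CPM in old KO libraries, against 10.8, 8.55 and 7.97 CPM in old WT libraries. In old KO 2 it stood near the WT values, while old KO 1 and old KO 3 were more than 2 times as high as any old WT library. Young KO libraries had 16.1, 16.05 and 7.70 CPM of Ifit1, against 14.6, 10.5 and 9.62 CPM in young WT libraries, and these groups overlapped. The log2 fold change was 1.27 ± 0.35 (adjusted p = 0.0270) in old and 0.22 ± 0.34 (adjusted p = 0.680) in young mice; the call in old mice ended without old KO 1, old KO 3 or any 1 old WT library (adjusted p up to 0.101) and in limma-voom (adjusted p = 0.0661). Ifit2 had 20.3, 16.6 and 22.7 CPM in old KO libraries, against 12.3, 14.1 and 12.6 CPM in old WT libraries, without overlap (0.60 ± 0.27, adjusted p = 0.134). Its levels in young mice were 12.8, 18.5 and 28.1 CPM in KO libraries, against 11.9, 13.6 and 7.94 CPM in WT libraries. Here young KO 1 lay within the WT values, the fold change was 0.81 ± 0.27 (adjusted p = 0.0468), and the call held in 4 of the 12 fits that leave out 1 library: it ended without young KO 2, young KO 3 or any 1 of the 6 WT libraries (adjusted p up to 0.160). With the replicate number as a block its adjusted p was 0.0781. Ifit3 averaged 7.07 ± 3.51 CPM in old KO and 4.35 ± 0.730 CPM in old WT libraries (SD, n = 3 each; adjusted p = 0.235).

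Among the 7 transcription factors, Irf2 was lower and Irf8 higher in old KO cells, and Stat2 was lower in young KO cells. Stat2, the subunit of the ISRE-binding complex that carries its activation domain, had 45.2, 38.5 and 41.99 CPM in young KO libraries, against 83.4, 59.4 and 68.95 CPM in young WT libraries. In old mice the levels were 36.1, 29.6 and 42.1 CPM in KO libraries, against 40.1, 40.3 and 39.9 CPM in WT libraries. The young WT libraries were the high ones, above all other 9, and the log2 fold change was -0.76 ± 0.16 (adjusted p = 0.00514) in young and -0.17 ± 0.16 (adjusted p = 0.472) in old mice. Irf2, which competes with Irf1 for the same sites and mostly represses, had 11.4, 11.4 and 8.72 CPM in old KO libraries, against 25.9, 31.3 and 23.2 CPM in old WT libraries. Young KO libraries were at 24.04, 11.2 and 13.4 CPM of Irf2, against 33.5, 20.4 and 30.9 CPM in young WT libraries. The old groups were apart and the young groups overlapped through young KO 1 and young WT 2, with log2 fold changes of -1.33 ± 0.28 (adjusted p = 0.00858) in old and -0.79 ± 0.27 (adjusted p = 0.0514) in young mice. Irf8, a factor of the myeloid lineage whose library values were singled out after they had been seen, had 20.7, 8.57 and 27.3 CPM in old KO libraries, against 6.64, 7.35 and 6.95 CPM in old WT libraries. Its level was 11.4, 16.05 and 33.8 CPM in young KO libraries, against 29.9, 26.4 and 25.8 CPM in young WT libraries. The old WT libraries were the low ones, below the other 9, and old KO 2 lay just above them. The fold change in old mice was 1.38 ± 0.43 (adjusted p = 0.0479); this call held in 3 of the 12 fits that leave out 1 library, those without old KO 2, young KO 1 or young KO 3, with adjusted p up to 0.144 in the others. It also ended in limma-voom (adjusted p = 0.109), with library size alone (0.0593) and with upper-quartile factors (0.0535). Irf1, the most abundant factor of the group and a target of interferon gamma, had 222, 167 and 244 CPM in old KO libraries, against 143, 83.5 and 116 CPM in old WT libraries. Young mice had 104, 108 and 266 CPM of Irf1 in KO libraries, against 249.8, 237 and 189 CPM in WT libraries. In old mice the KO libraries were higher and the groups did not overlap, while young KO 3 was more than 2 times as high as the other young KO libraries; neither difference passed the threshold (0.88 ± 0.34, adjusted p = 0.0993, and -0.51 ± 0.34, adjusted p = 0.314). Irf5, Irf7 and Irf9 did not pass it in either comparison; Irf9, the DNA-binding subunit of the complex, averaged 41.1 ± 8.88 CPM in old KO and 32.6 ± 4.03 CPM in old WT libraries (SD, n = 3 each), and its exons overlap Rnf31.

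Of the 6 nucleic acid sensors, 1 passed the threshold. Dhx58, or LGP2, a helper of the RNA sensors, had 3.15, 2.88 and 2.91 CPM in old KO libraries, against 5.41, 6.46 and 5.65 CPM in old WT libraries. Young KO libraries stood at 4.23, 5.01 and 3.73 CPM of Dhx58, against 5.63, 7.56 and 5.53 CPM in young WT libraries. All 6 KO values were below all 6 WT values, and the fold change was -0.97 ± 0.25 (adjusted p = 0.0214) in old and -0.51 ± 0.24 (adjusted p = 0.154) in young mice; the call ended without old KO 2, old KO 3, old WT 1 or old WT 2 (adjusted p up to 0.0790). Adar, which edits double-stranded RNA, had 50.9, 47.98 and 53.8 CPM in old KO libraries, against 55.6, 59.6 and 57.7 CPM in old WT libraries. In young mice the Adar levels were 53.1, 45.3 and 48.7 CPM in KO libraries, against 69.5, 55.7 and 56.7 CPM in WT libraries. The KO values were again below all WT values, but the differences were small and not past the threshold (-0.18 ± 0.13, adjusted p = 0.335, and -0.31 ± 0.13, adjusted p = 0.0984). With the GC offsets described below the fold changes of Adar were 0.01 in old and -0.06 in young mice. The RNA sensors Ifih1 (MDA5) and Ddx58 (RIG-I) and the kinase Eif2ak2 (PKR) had fold changes of 0.31 ± 0.18, 0.17 ± 0.15 and 0.23 ± 0.20 in old mice and 0.08 ± 0.18, -0.10 ± 0.15 and 0.11 ± 0.20 in young mice, none past the threshold. Zbp1, a sensor of Z-form nucleic acids, had -0.70 ± 0.27 (adjusted p = 0.0882) in old and -0.62 ± 0.27 (adjusted p = 0.109) in young mice.

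Isg15, a ubiquitin-like protein that is attached to other proteins, was lower in young KO cells. It had 7.54, 4.49 and 5.22 CPM in young KO libraries, against 14.9, 12.3 and 16.04 CPM in young WT libraries, without overlap (-1.31 ± 0.29, adjusted p = 0.00752). Old KO libraries had 10.4, 4.75 and 8.43 CPM of Isg15, against 12.8, 10.8 and 8.99 CPM in old WT libraries, where the ranges overlapped (-0.50 ± 0.29, adjusted p = 0.241). Trim25, a ubiquitin ligase that acts on RIG-I, had 60.7, 59.7 and 49.97 CPM in old KO libraries, against 79.2, 78.01 and 96.1 CPM in old WT libraries, lower in each KO library but not past the threshold (-0.57 ± 0.21, adjusted p = 0.0838). Young mice had 81.6, 51.2 and 50.7 CPM of Trim25 in KO libraries, against 102, 58.9 and 80.02 CPM in WT libraries, with overlap (-0.39 ± 0.21, adjusted p = 0.212). Usp18, the protease that removes Isg15, averaged 4.58 CPM in old KO, 5.24 in young KO, 4.35 in old WT and 5.08 in young WT libraries. Samhd1, which breaks down deoxynucleotides, had 36.6, 29.9 and 28.8 CPM in young KO libraries, against 51.9, 47.1 and 46.4 CPM in young WT libraries. The young groups were apart (-0.60 ± 0.15, adjusted p = 0.0127), and the call ended without young KO 2 (adjusted p = 0.0710). In old mice Samhd1 had 34.9, 33.4 and 43.00 CPM in KO libraries, against 40.2, 47.5 and 37.9 CPM in WT libraries, with overlap (-0.18 ± 0.15, adjusted p = 0.413). Rsad2 (viperin), the nucleotide kinase Cmpk2 and the exonuclease Isg20 did not pass the threshold at either age. Rsad2 and Isg20 had 1 library far from the rest, singled out after it had been seen. Young KO 3 had 4.47 CPM of Rsad2 and 11.7 CPM of Isg20, against 12.1 to 20.4 CPM and 1.54 to 5.86 CPM in the other 11 libraries.

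The IFITM, GTPase and PARP groups, 8 genes, held 0 calls in either knockout comparison in edgeR. Ifitm3 had 225, 247 and 211 CPM in old KO libraries, against 207, 190.2 and 193 CPM in old WT libraries, higher in each KO library (0.21 ± 0.17, adjusted p = 0.395). In young mice it had 151, 151 and 236 CPM in KO libraries, against 197, 237 and 198 CPM in WT libraries, where young KO 1 and 2 were low and young KO 3 was in the WT range (-0.24 ± 0.17, adjusted p = 0.329). Ifitm1 and Ifitm2 had adjusted p of 0.940 and 0.920 in old mice and 0.426 and 0.698 in young mice. Gbp2, a guanylate-binding GTPase that coats vacuoles of pathogens, had 165, 66.6 and 167 CPM in old KO libraries, against 104, 118 and 92.2 CPM in old WT libraries. Young KO libraries ranged more widely, at 109, 153 and 236 CPM of Gbp2, against 115, 106 and 140.0 CPM in young WT libraries. Old KO 2 was low and young KO 3 high for Gbp2, and neither comparison passed the threshold (0.34 ± 0.34, adjusted p = 0.527, and 0.46 ± 0.34, adjusted p = 0.365). Gbp3 had fold changes of -0.29 ± 0.25 in old and -0.49 ± 0.25 in young mice (adjusted p = 0.451 and 0.176). Parp14, a mono-ADP-ribosyltransferase, had 128, 88.6 and 137 CPM in old KO libraries, against 90.6, 89.8 and 88.1 CPM in old WT libraries (0.39 ± 0.17, adjusted p = 0.128). For young mice the values were 114, 104 and 105 CPM in KO libraries, against 115, 76.1 and 93.5 CPM in WT libraries, with overlap (0.18 ± 0.17, adjusted p = 0.480). Parp9 and its partner Dtx3l, a ubiquitin ligase, share exon sequence on opposite strands and had fold changes of 0.36 ± 0.18 and 0.11 ± 0.17 in old mice. DESeq2 and limma-voom also called 0 of these 8 genes at either age, and 1 gene, Parp14, had an unadjusted p under 0.05 in edgeR, in old mice.

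**Figure D3:**
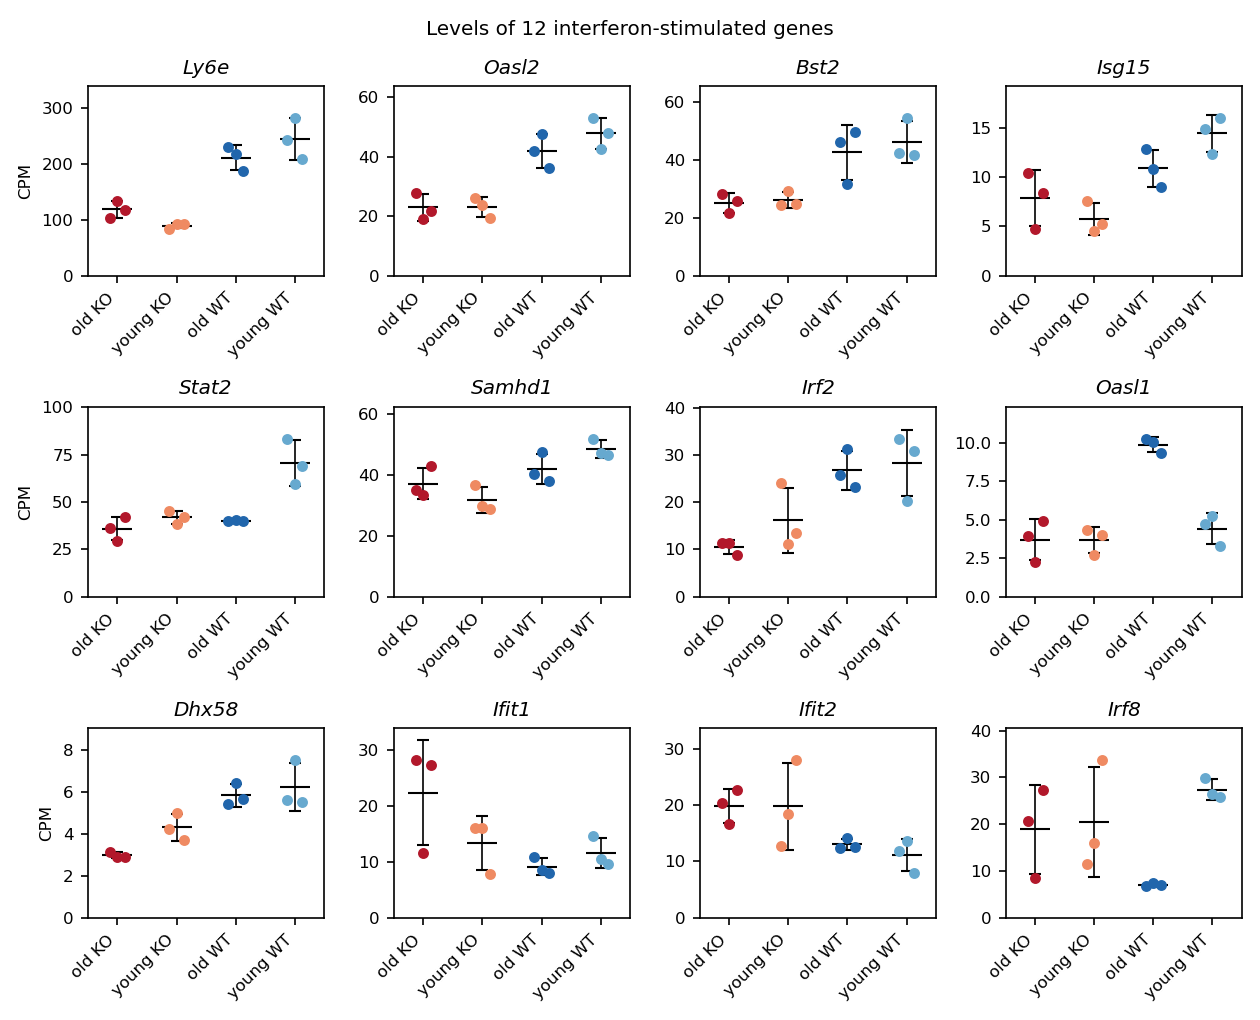
CPM of 12 genes in each library (points), with the mean and SD of 3 libraries per group (bars), on linear axes from 0. Ly6e, Oasl2, Bst2 and Dhx58 sit lower in all KO libraries, Oasl1 is high in old WT, Stat2 is high in young WT and Irf8 is low in old WT libraries.

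With age, the 42 genes changed little by the test. In WT cells 1 gene, Stat2, was lower in old than in young mice (log2 fold change -0.82 ± 0.15, adjusted p = 0.0270) and 0 were higher in edgeR, where 0.805% of all tested genes were called lower and 0.258% higher. At an unadjusted p under 0.05 there were 8 genes in edgeR, where 1918 of 13540 tested genes were. DESeq2 and limma-voom each called 1 higher and 2 lower. Old WT libraries had 40.1, 40.3 and 39.9 CPM of Stat2, against 83.4, 59.4 and 68.95 CPM in young WT libraries, without overlap. The Stat2 call ended without any 1 old WT library, young WT 1 or young WT 3 (adjusted p up to 0.135), and the count ran from 0 to 4 when 1 library was left out, with 4 without young KO 3, 3 without old KO 2, and 2 without old KO 3 or young KO 1. Fold changes leaned to lower levels, with 34 of 42 below 0 and a median of -0.20. Over all tested genes 6649 of 13540 were below 0 and the median was 0.01. The 42 values come from the same libraries and are not separate observations. Close to the threshold were Irf8, lower in each old WT library (-1.97 ± 0.42, adjusted p = 0.0551), and Oasl1, higher in each old WT library (1.17 ± 0.30, adjusted p = 0.0777). Irf9 (-0.54 ± 0.18), Irf1 (-0.98 ± 0.34), Rtp4 (-0.63 ± 0.27) and Cmpk2 (-0.55 ± 0.25) were also lower in each old WT library than in any young WT library, with adjusted p of 0.172, 0.212, 0.288 and 0.328. Oas3 went the other way, with 1.48, 2.78 and 0.885 CPM in old WT libraries, against 0.679, 0.463 and 0.160 CPM in young WT libraries (1.88 ± 0.79, adjusted p = 0.291). In KO cells 0 of the 42 genes differed between old and young mice by edgeR, DESeq2 or limma-voom, 3 had an unadjusted p under 0.05 in each of the 3 tools, and 0.0148% of all tested genes were called higher and 0% lower. Those 3 in edgeR were Oas1a (-2.73 ± 0.79), Ly6e (0.41 ± 0.14) and Irf2 (-0.63 ± 0.28), with adjusted p of 0.264, 0.359 and 0.501. The median was -0.02.

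The test of whether the age effect differed between KO and WT cells called 0 of the 42 genes in edgeR, DESeq2 and limma-voom, with 0.00739% of all tested genes called in each direction. An unadjusted p under 0.05 was found for 6 genes in edgeR. These were Ly6e (0.62 ± 0.20), Irf8 (1.85 ± 0.59), Oas1a (-2.80 ± 0.95), Irf1 (1.39 ± 0.48), Oasl1 (-1.23 ± 0.44) and Stat2 (0.58 ± 0.22), with adjusted p between 0.374 and 0.432; the values are the log2 age effect in KO minus that in WT cells. Without young KO 3, 2 genes were called higher. The knockout effects named above for 1 age alone are therefore not shown to differ between old and young mice.

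**Figure D4:**
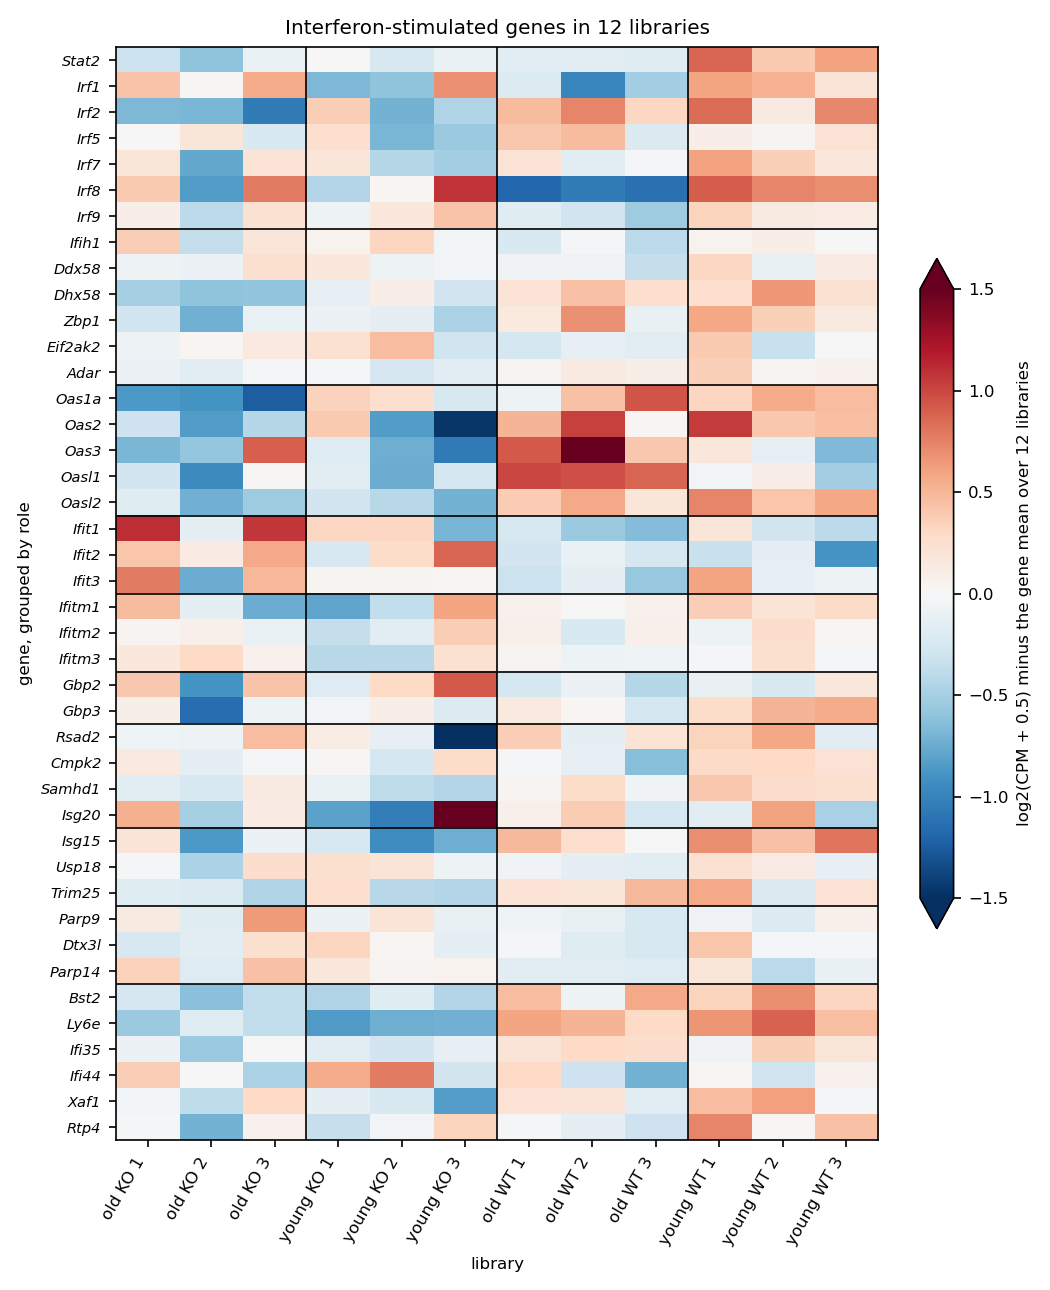
Log2(CPM + 0.5) of the 42 genes minus the gene's mean over 12 libraries, with genes in rows by role, libraries in columns by group, and colours ending at -1.5 and 1.5. Blue rows for Ly6e, Oasl2 and Bst2 run across the 6 KO columns, and old KO 2 and young KO 3 differ from the other libraries of their groups.

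For the 42 genes, the spread between libraries was larger in KO groups. It was not computed over all tested genes, so it is not shown to be particular to these genes. The libraries with the fewest gene reads, young KO 3 (4193433) and old KO 3 (4453886), were both in KO groups. The median coefficient of variation of the 42 genes was 22.3% in old KO, 25.2% in young KO, 12.3% in old WT and 15.4% in young WT libraries, a comparison of 3 libraries per group that was not tested. Old KO 2 was the lowest of its group for 30 of 42 genes and old WT 3 for 27. The summed level of the 42 genes was 1676 ± 216 CPM in old KO, 1572 ± 191 CPM in young KO, 1636 ± 79.9 CPM in old WT and 1972 ± 108 CPM in young WT libraries (mean ± SD, n = 3).

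Fold changes between KO and WT moved with the GC content of the transcript. Over the 42 genes the Spearman correlation of GC content with the log2 fold change was -0.50 in old and -0.41 in young mice, and over 13267 tested genes it was -0.44 and -0.54, as a description across genes that share the same libraries. With offsets for GC content per library, 5 of the 42 genes were lower at each age, 11.9%, where 3.40% of all genes were lower in old and 3.44% in young mice; 0 were higher in edgeR, where 4.31% of all genes were in old and 3.60% in young mice, with 5 and 0 of the 42 at an unadjusted p under 0.05. In old mice Ly6e (-0.59), Oasl2 (-0.85), Irf2 (-1.45), Oasl1 (-1.22) and Oas1a (-3.05) remained past the threshold, while Bst2 (-0.52), Dhx58 (-0.76), Ifit1 (0.97) and Irf8 (1.51) did not, with adjusted p of 0.0916, 0.0743, 0.0854 and 0.0526. In young mice Ly6e (-1.11), Oasl2 (-0.995), Stat2 (-0.57), Isg15 (-1.08) and Samhd1 (-0.56) remained, and Bst2 (-0.47, adjusted p = 0.126) and Ifit2 (0.41, adjusted p = 0.403) did not. None of the fold changes past the threshold before the offsets changed sign. Fold changes not past it did change sign for several genes at each age. Among them in young mice, Oasl1 moved from -0.26 to 0.11 and Ifit1 from 0.22 to -0.12. Ifih1 moved from 0.08 to -0.29 and Eif2ak2 from 0.11 to -0.18 in young mice. In old mice examples were Adar (-0.18 to 0.01), Irf7 (-0.11 to 0.14) and Ifi44 (0.26 to -0.16).

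**Figure D5:**
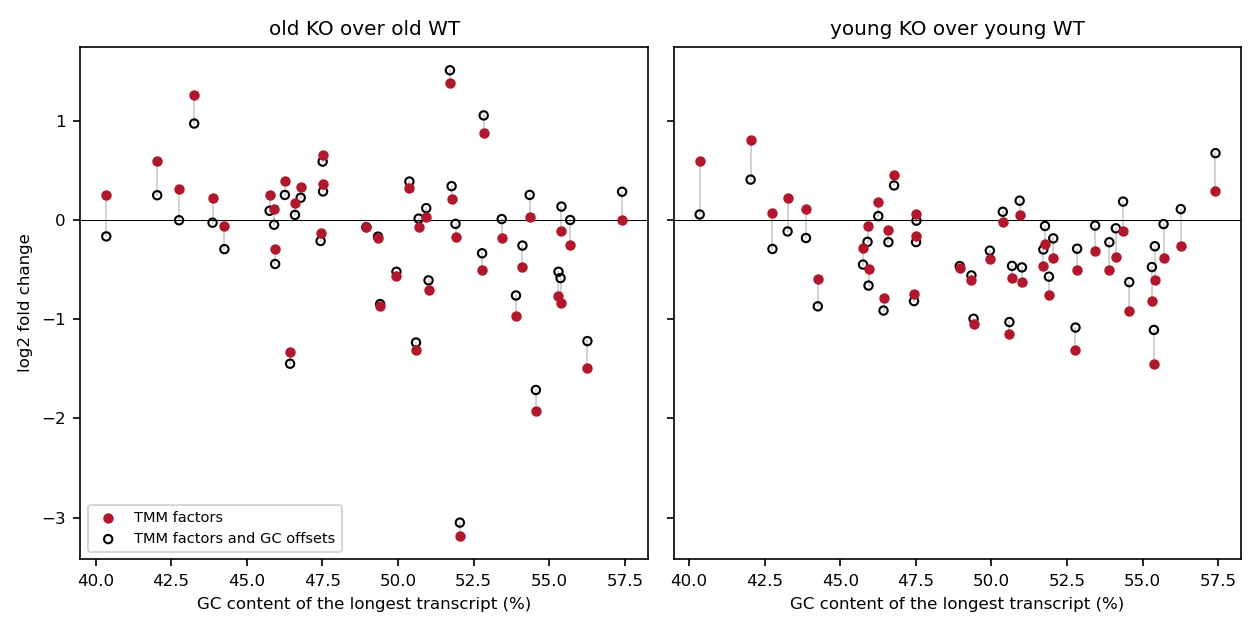
Log2 fold change of KO over WT against the GC content of the longest transcript for the 42 genes, in old (left) and young (right) mice, with (open) and without (filled) GC offsets. Filled points slope down to the right, and the offsets lift GC-rich genes and lower GC-poor ones.

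The calls were spread over genes with and without the ISRE-type motif. Of the 16 genes with it, 1 was higher and 3 lower in old KO cells and 0 higher and 3 lower in young KO cells (edgeR). Of the 18 genes with a window and no match, 1 was higher and 2 lower at each age. The medians in young mice were -0.31 with the motif and -0.38 without it.

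Markers of the labelled cell type and of other cell types were examined. The 15 satellite cell and myoblast markers were all tested and summed to 7721 to 8924 CPM in old KO, 7123 to 10538 in young KO, 8138 to 8498 in old WT and 8876 to 9949 CPM in young WT libraries, with Pax7 at 169 to 397 CPM. In bulk libraries fewer cells of a type and less RNA per cell cannot be told apart. Of 23 macrophage and monocyte markers in the files 20 were tested, and their sum was 157 to 244 CPM in old KO and 167 to 433 CPM in young KO, against 368 to 391 CPM in old WT and 187 to 211 CPM in young WT libraries, of which Lgmn made up 111 to 185 CPM. In old KO against old WT 5 of the 20 were lower and all 20 fold changes were below 0 (median -2.14), so these markers moved with the lower genes in old mice and opposite to Irf8; their part in either was not tested. In young KO against young WT 18 of the 20 were above 0 (median 0.96) and 0 passed the threshold (edgeR, 1 at an unadjusted p under 0.05), opposite to Ly6e, Oasl2, Bst2, Stat2 and Isg15. In old WT against young WT all 20 were above 0 (median 2.10), while Stat2 and Irf8 were lower. Of 8 neutrophil markers in the files 5 were tested, and the sum of the list was 7.49 to 98.2 CPM in old KO and 0.248 to 7.96 CPM in young KO, against 2.59 to 7.35 CPM in old WT and 7.62 to 11.5 CPM in young WT libraries. In old KO against old WT 3 of the 5 were higher and all 5 fold changes were above 0 (median 3.41), so these markers moved with Ifit1 and Irf8; in young KO against young WT all 5 were below 0 (median -1.87) and 0 passed the threshold (edgeR, 0 at an unadjusted p under 0.05). Of 12 pericyte and smooth muscle markers 4 were higher in old KO cells (10 above 0, median 0.79), and 1 was lower in young KO cells (9 below 0, median -0.20). Their sum was 3464 to 4155 CPM in old KO, 3107 to 4310 in young KO, 3107 to 3213 in old WT and 3973 to 4889 CPM in young WT libraries. Of 14 fibroblast markers 2 were higher in old KO cells (13 above 0, median 0.66), and in young KO cells 2 were higher and 2 lower. These summed to 8015 to 11387 CPM in old KO, 8943 to 9391 in young KO, 6262 to 7441 in old WT and 10877.5 to 13331 CPM in young WT libraries. The fibroblast sum was thus above that of the satellite cell and myoblast markers in young WT libraries and below it in old WT libraries. How much RNA came from other cell types was not tested. Of 14 endothelial markers 11 were below 0 at each age, with 0 calls in old mice (edgeR, 2 at an unadjusted p under 0.05) and 1 lower in young mice. The part of these lists in the results was not tested. Of all tested genes 9.52% were higher and 7.21% lower in old KO cells, and 10.9% and 10% in young KO cells. The 15 lymphocyte and plasmacytoid dendritic cell markers other than Tcf4 summed to 0.581 to 10.7 CPM, and 0 of them passed the filter. Choroid plexus markers summed to 28.8 to 72.9 CPM in KO, against 153 to 6158 CPM in WT libraries, a difference that moved with the KO effects at both ages; its part was not tested.

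The genes upstream were examined by lists of the pathway. No interferon gene passed the filter: the 18 ligand genes matched summed to 0 to 0.291 CPM in old KO, 0.128 to 0.994 in young KO, 0.681 to 3.18 in old WT and 0.401 to 0.485 CPM in young WT libraries. In a single library 3 reads represent 0.146 to 0.872 CPM. Of 17 tested receptor, kinase and regulator genes, 4 were higher in old KO cells in edgeR and limma-voom and 5 in DESeq2. In old KO cells 0 were lower in any of these tools, and 7 in all had an unadjusted p under 0.05 in edgeR. In young KO cells 3 were higher and 1 lower in edgeR. The edgeR calls in old mice were 23.5% higher, where 9.52% of all tested genes were higher and 7.21% lower. Those in young mice were 17.6% higher and 5.88% lower, against 10.9% and 10% of all tested genes. Jak2, the kinase of the interferon gamma receptor, had 173, 168 and 160.4 CPM in old KO libraries, against 106, 103 and 98.5 CPM in old WT libraries. The young KO libraries had 186, 183 and 179 CPM of Jak2, against 108, 66.96 and 98.5 CPM in young WT libraries. All KO libraries were above all WT libraries, with log2 fold changes of 0.71 ± 0.15 (adjusted p = 0.00874) in old and 0.997 ± 0.15 (adjusted p = 0.00116) in young mice, and 0.47 (adjusted p = 0.0540) and 0.74 (adjusted p = 0.0120) with GC offsets. Ifngr1, a chain of that receptor, was higher at both ages (0.67 ± 0.14, adjusted p = 0.00864, and 0.50 ± 0.14, adjusted p = 0.0225), as was the phosphatase Ptpn2 (0.69 ± 0.14, adjusted p = 0.00821, and 0.53 ± 0.14, adjusted p = 0.0190), whose calls ended with GC offsets (adjusted p = 0.423 and 0.955). In young mice the Ifngr1 call ended without young KO 2, young WT 2 or young WT 3, and the Ptpn2 call without young WT 3. Ifnar2, a chain of the type I receptor, was higher in old KO cells (0.65, adjusted p = 0.0357). With GC offsets this was 0.72 (adjusted p = 0.0361), and the call held in 5 of the 12 fits that leave out 1 library. Pias3, an inhibitor of Stat3, was lower in young KO cells (-1.05 ± 0.20, adjusted p = 0.00362).

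Among 20 tested genes that sense nucleic acids or microbial ligands and signal to interferon, 2 were higher and 2 lower in old KO cells. In young KO cells 4 were higher and 3 lower. These were 10% and 10% in old mice and 20% and 15% in young mice. Of all tested genes 9.52% were higher and 7.21% lower in old mice, and 10.9% and 10% in young mice. Ticam1, the adaptor of Toll-like receptor 3, had 10.1, 15.2 and 13.4 CPM in old KO libraries, against 25.8, 24.7 and 25.4 CPM in old WT libraries. In young mice Ticam1 stood at 14.8, 15.1 and 15.7 CPM in KO libraries, against 29.7, 32.7 and 26.2 CPM in WT libraries. Each KO library was below each WT library (-0.97 ± 0.17, adjusted p = 0.00348, and -0.96 ± 0.16, adjusted p = 0.00203), and the calls remained with GC offsets (-0.70 and -0.58). Tmem173 (STING), the adaptor of cytosolic DNA sensing, was lower in young KO cells (-0.85 ± 0.16, adjusted p = 0.00283). It was also lower in old KO cells (-0.51, adjusted p = 0.0420). That call held in 3 of the 12 fits that leave out 1 library and ended with GC offsets (-0.40, adjusted p = 0.123). Tank, a scaffold of the kinase Tbk1, was higher at both ages (0.70 ± 0.15, adjusted p = 0.0102, and 0.73 ± 0.15, adjusted p = 0.00574) and did not pass with GC offsets (adjusted p = 0.550 and 0.738). Irak4 was higher in old KO cells (0.86 ± 0.23, adjusted p = 0.0219), a call that ended without old KO 3, old WT 1 or old WT 3.

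Antigen presentation by MHC class I is also raised by interferon gamma. Of 18 tested genes of that pathway 1 was higher and 2 lower in old KO cells, and 1 was higher and 5 lower in young KO cells. These were 5.56% and 11.1% in old mice, against 9.52% and 7.21% of all tested genes. In young mice they were 5.56% and 27.8%, against 10.9% and 10%. Psme1, an activator subunit of the proteasome, was lower at both ages (-0.54 ± 0.13, adjusted p = 0.0168, and -0.68 ± 0.13, adjusted p = 0.00365), as was the peptide transporter Tap2 (-0.42 ± 0.12, adjusted p = 0.0315, and -0.52 ± 0.12, adjusted p = 0.00949). Erap1, which trims peptides, was higher at both ages (0.67 ± 0.14, adjusted p = 0.00913, and 0.69 ± 0.14, adjusted p = 0.00530). With GC offsets 0 of the 18 passed at either age (edgeR, 2 and 4 at an unadjusted p under 0.05), and the calls in old mice ended without old KO 1, old KO 3 or old WT 1 for both Psme1 and Tap2, without old KO 2 or old WT 2 for Psme1, and without young KO 2 or old WT 3 for Tap2, which also lost its call in young mice without young KO 2.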

How the data were processed

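The authors deposited raw counts of reads per gene, as whole numbers, for 12 libraries. The submitters' processing notes name TopHat, HTSeq, DESeq2 and the build mm9, and per the labels the kit kept strand and depleted ribosomal RNA. The sources used here do not say whether counting used strand. Reads can therefore be shared or lost where exons overlap another gene of the files (Irf3, Irf5, Irf7, Irf9, Adar, Parp9 and Dtx3l) and within families of similar sequence (OAS, IFIT, IFITM, GBP). Summary lines of the counter did not enter library sizes; reads outside genes were 32.2% to 70.8% of the sum of gene, outside and ambiguous reads.

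Genes were filtered with filterByExpr, and TMM factors set the scale. The robust quasi-likelihood model of edgeR 4.0.16 in R 4.3.3 had 1 mean per group over 12 libraries. Benjamini-Hochberg adjustment ran over 13540 genes, with a threshold of 0.05. CPM are deposited counts divided by library size after TMM factors. Fold changes are KO over WT or old over young, and each standard error (SE) was derived from the fold change and its F statistic. Alternatives were DESeq2 1.42.0, limma-voom (limma 3.58.1), other scaling and filters, fits of the groups compared, a replicate block, GC offsets (loess, span 0.5) and leaving out libraries. GC content and length are those of the longest GENCODE M21 transcript, and promoters with their coordinates come from RefSeq (GRCm38.p6), another build than mm9. The scripts were tested on simulated counts in which the changed genes were known. Floors and intervals cover counting error only.

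The genes, lists and alternatives were chosen with earlier results of these data known. Every gene past the threshold in a comparison is named, with library values for up to 8 of them with the smallest p and for the most abundant gene of each role. Of each other pathway list, up to 3 genes per comparison are named by smallest p. Ifnar2 and Tmem173 in old mice and Ifngr1 in young mice are named besides. Replicate numbers were not taken to pair libraries. Correlations of deviations ran from -0.261 to 0.231 between same-numbered libraries and from -0.3455 to 0.3091 between the others. Deviations from a group mean constrain each other, so these values cannot exclude pairing. The labels do not say that the libraries of a group came from separate animals, so p-values cover only the spread among those libraries, which may be technical.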

Additional observations from a re-analysis of the deposited data

How the results depend on the processing

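The 9 calls in old KO against old WT were 5 with GC offsets, 0 without old KO 2 and 3 (the most Y-linked reads), 0 without old KO 3 and old WT 2 (the most reads outside genes) and 4 without old KO 3 and young KO 2 (the largest Lars2 shares), and ran from 4 to 13 when 1 library was left out; the first pair leaves 1 library in old KO, which is then assumed to vary like the other groups. The 7 calls in young KO against young WT were 4 without old KO 3 and young KO 2 and ran from 5 to 11. The 1 call in old WT against young WT was 3 in DESeq2, 3 in limma-voom, 5 in a fit of only those groups, 2 without old KO 2 and 3, 0 without old KO 3 and old WT 2, and 0 to 4 with 1 library left out. For old KO against young KO the count was 0 in every alternative run, and for the difference of the age effects it was 0 with 1 library left out except without young KO 3, a range of 0 to 2; a fit of only the groups compared is the same fit there and was not run again. With the replicate number as a block the counts were 9, 7, 1, 0 and 0. The numbers are not known to pair the libraries. Among the genes named past the threshold the block ended the call of Ifit2 alone. Over all genes, old KO against old WT had 1289 higher and 976 lower calls, but 359 and 1827 with library size alone and 1021 and 1268 with upper-quartile factors; young KO against young WT had 1477 and 1354, but 865 and 1278, and 1347 and 1576; old WT against young WT had 35 and 109, but 30 and 53 with library size alone. Over the 424 alternative values of genes named past the threshold, 338 stayed past it in the same direction, 86 kept the direction but not the threshold, and 0 changed sign. The cause of these changes was not tested. Depth limits Oas1a and Oas3 most, with 0 to 26 and 0 to 28 reads per library.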
